A study of Mus musculus with 16 samples.

Results

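The 10 genes described here, in blood-forming stem cells and lymphoid progenitors, are imprinted genes: Grb10, Ndn, Cdkn1c, Meg3, Dlk1, H19, Igf2r, Peg3, Plagl1 and Mest. Their probe sets were found by the gene symbols of the array's annotation, which gave 38 of 45101 probe sets. Of the 10 genes, 9 had at least 1 probe set of their own among 18194 genes on the array. The exception was H19, whose probe set is annotated to Mir675 as well. Where a gene had several probe sets, the one with the highest mean of log2(intensity + 16) over the 16 arrays stands for it, and the others were examined beside it. For Ndn this is not the probe set brightest in HSC, because its signal in CLP was higher than that of the others.

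Bone marrow cells of mice were sorted and their RNA hybridised to 16 Affymetrix arrays, each prepared from 4000 to 7000 cells. Haematopoietic stem cells (HSC) came from 4 groups of 3 arrays. These were young wild type at 9 to 12 weeks, old wild type at 24 months, Polgtm1Lrsn+/+ (wild type) at 32 weeks and Polgtm1Lrsn-/- (mutator) at 32 weeks. Polg copies mitochondrial DNA, and the mutator allele removes its proofreading, so that mitochondrial mutations build up. Common lymphoid progenitors (CLP) of wild-type mice at 8 to 12 weeks were sorted as Ly6D- or Ly6D+, with 2 arrays each, and Ly6D marks the CLP that lean to the B lineage. All samples are labelled C57Bl6 and female, and the replicates as biological. No source used here gives the sort gates or the number of animals behind an array.

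An imprinted gene is expressed mainly or wholly from the copy inherited from 1 parent. DNA methylation laid down in the germ line at control regions marks which copy is silent. Many imprinted genes act on growth: maternally expressed genes such as Grb10, Cdkn1c, H19 and Igf2r tend to restrain it, and paternally expressed genes such as Dlk1 and Peg3 include promoters of growth. In adult HSC, Cdkn1c, Ndn and the Dlk1-Meg3 and H19-Igf2 loci are known for their links to quiescence. The arrays measured the RNA of both copies together, so the state of an imprint was not measured.

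Promoters are shown for Grb10 and Ndn, which had the largest differences between HSC and CLP, and for Meg3, which had the largest difference among HSC groups. RefSeq sequence (GRCm38.p6) was matched for 8 of the 10 genes, with 12 promoters. Grb10 and Meg3 have 2 promoters each in the table, and the one with more CG is printed. Each line gives the 250 bases before a start site, 5′ to 3′ on the strand of the gene, with CG in capitals. CG is the dinucleotide that carries DNA methylation, and it reads the same on both strands.
Grb10, chr11:12037421-12037670, minus strand: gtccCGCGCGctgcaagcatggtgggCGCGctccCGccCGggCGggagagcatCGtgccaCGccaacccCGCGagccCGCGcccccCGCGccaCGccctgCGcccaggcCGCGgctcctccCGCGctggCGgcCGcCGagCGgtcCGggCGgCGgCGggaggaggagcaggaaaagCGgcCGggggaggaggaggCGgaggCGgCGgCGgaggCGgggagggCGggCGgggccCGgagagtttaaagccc
Ndn, chr7:62348027-62348276, plus strand: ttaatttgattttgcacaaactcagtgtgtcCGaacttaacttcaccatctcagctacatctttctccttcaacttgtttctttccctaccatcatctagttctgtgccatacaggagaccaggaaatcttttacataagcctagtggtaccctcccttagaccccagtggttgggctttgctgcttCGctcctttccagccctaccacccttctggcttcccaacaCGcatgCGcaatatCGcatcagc
Meg3, chr12:109540746-109540995, plus strand: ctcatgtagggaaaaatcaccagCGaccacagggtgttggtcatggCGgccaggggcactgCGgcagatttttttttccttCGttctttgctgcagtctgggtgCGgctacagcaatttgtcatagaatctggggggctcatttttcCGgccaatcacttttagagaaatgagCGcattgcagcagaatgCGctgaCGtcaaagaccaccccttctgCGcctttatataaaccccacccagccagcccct
The printed Grb10 promoter held 40 CG, more than 98.7% of all 32851 promoters of this length in the table, and the other Grb10 promoter held 8. The printed Meg3 promoter held 10, the other Meg3 promoter 0 and the Ndn promoter 5, against a median of 6 over all promoters and of 9 over the 12 promoters of these genes. Methylation was not measured, and these counts describe the sequence alone.

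Intensities are given as deposited, on a linear scale. The median intensity of an array lay between 24.6 and 29.8 and its 40th percentile between 16.6 and 21.3, and a probe set at or below that percentile is called dim. HSC markers followed the labels, with a mean log2 level over 10 genes of 8.84 to 10.4 in HSC and 5.94 to 6.53 in CLP, and so did Ly6d, at 1126 and 1758 in Ly6D+ CLP and at most 54.7 elsewhere. Xist, expressed from the inactive X chromosome, went against the label female in all 4 CLP arrays and in replicate 3 of the 32-week wild type, where it was 9.12 to 16.8 and the Y-linked Eif2s3y was 423 to 758. In the other 11 arrays Xist was 3507 to 11022 and Eif2s3y at most 12.7. The log2 ratio of 3′ to 5′ signal of the beta-actin control probe sets, which grows as RNA is shortened or amplified further, was 4.24 to 5.26 in the 6 arrays at 32 weeks and 2.11 to 3.85 in the other 10. Age, preparation and this ratio cannot be told apart between the 32-week arrays and the others. In bulk samples such as these, fewer cells of a type and less RNA per cell cannot be told apart.

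**Figure D1:**
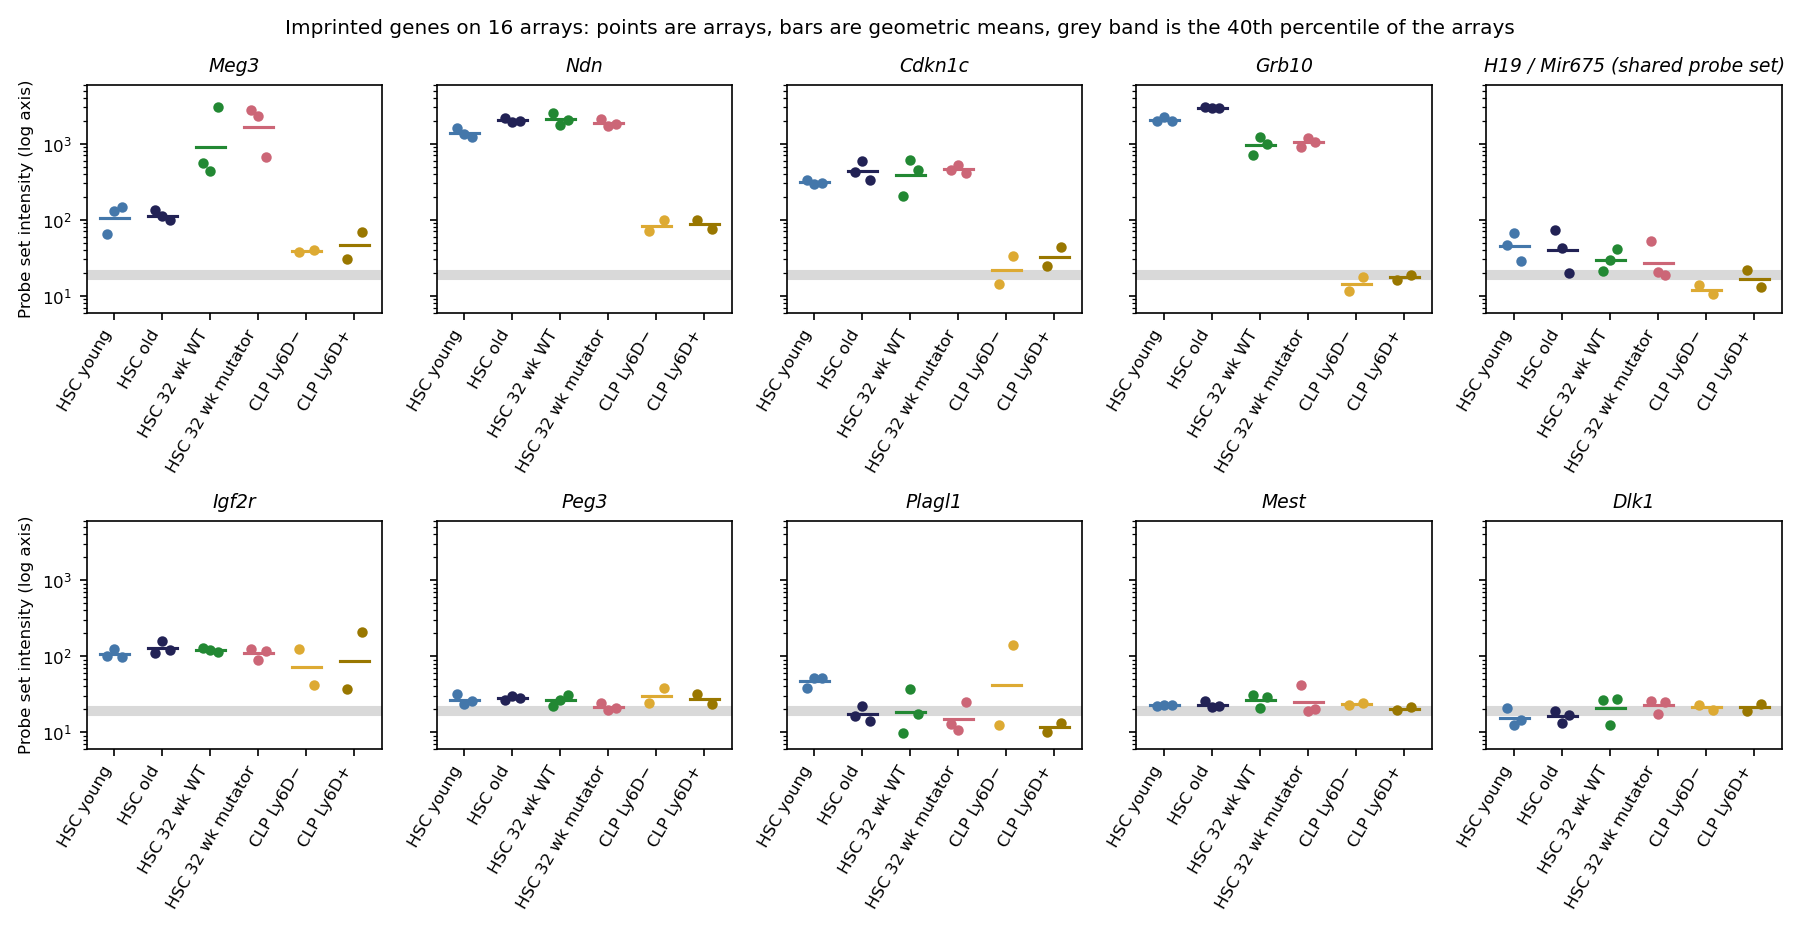
Intensity of each gene's probe set with the highest mean on every array, on a log axis, by group, with bars at geometric means and a grey band at the 40th percentiles of the arrays. Grb10, Ndn and Cdkn1c sit high in all 12 HSC arrays and low in all 4 CLP arrays, and Meg3 is highest in the HSC arrays at 32 weeks.

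Grb10, Ndn and Cdkn1c, which restrain growth signals and cell division, were high in young HSC and low in CLP. They were the 3 of 9 genes tested that fell, and none rose. Over all 14344 genes tested, 18.2% were called lower and 12.5% higher, and groups did not overlap for 40.1%. A gene was called when its adjusted p was under 0.05 in limma, fitted on log2(intensity + 16) over all 16 arrays. The CLP arrays all had Xist and Eif2s3y levels that went against the label female, and the young HSC arrays did not. Cell type and this difference cannot be told apart in this comparison.

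Grb10 encodes an adaptor that binds the insulin and IGF receptors and dampens their signal. Its intensity in young HSC was 2016, 2214 and 1980.2, and in CLP it was 11.7 and 17.7 (Ly6D-) and 16.3 and 18.9 (Ly6D+). The groups lay far apart, and only 1 of the 4 CLP arrays was above its 40th percentile. Counting CLP at that percentile where lower, the geometric mean of Grb10 was at least 114-fold higher in young HSC. The log2 change in CLP was -6.02 ± 0.17 (SE), with an adjusted p of 5.07e-11 in limma. The other 2 Grb10 probe sets were at 9.57 to 33.2 on all arrays and showed no such drop.

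Ndn encodes necdin, a growth-restraining protein known to hold HSC in quiescence. On the probe set that stands for it, young HSC had 1596, 1341 and 1238, and CLP had 70.9 and 98.3 (Ly6D-) and 98.5 and 76.4 (Ly6D+). The log2 change in CLP was -3.79 ± 0.16 (SE; adjusted p = 2.24e-09, limma), and the geometric mean of the intensities was 16.3-fold lower. The other 4 bright Ndn probe sets were dim on all 4 CLP arrays, where they stood at 7.65 to 16.3. Their geometric means were at least 18.4-fold to 131-fold higher in young HSC. All 5 bright probe sets were thus called lower in CLP, and the remaining 3 stayed between 6.91 and 11.4 on every array.

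Cdkn1c encodes p57, an inhibitor of cyclin-dependent kinases that is known to keep HSC out of cycle. Its 1 probe set read 335, 297 and 305 in young HSC, 14.4 and 33.3 in Ly6D- CLP and 24.3 and 43.7 in Ly6D+ CLP. The log2 change was -2.91 ± 0.31 (SE; adjusted p = 1.56e-05, limma), with 3 of 4 CLP arrays above their percentile. The geometric mean was 11.7-fold higher in young HSC as measured, and 11.1-fold with the dim array set at its percentile.

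The remaining 6 genes did not pass the test in this comparison. Meg3, a long noncoding RNA, had a mean of 44.4 in CLP and 114 in young HSC, a log2 change of -1.07 (95% interval -2.39 to 0.24; adjusted p = 0.210, limma). Its probe sets disagreed: the 10 tested had changes of -1.59 to 0.32, and none was called. On 1452905_at the CLP arrays read 18.3 to 26.8, below the 64.3 to 131 of young HSC. On 1452906_at the mean was 58.2 in Ly6D- and 77.8 in Ly6D+ CLP and 51.0 in young HSC. Igf2r had a mean of 102 in CLP and 108 in young HSC, and its CLP arrays ranged from 37.0 to 206. Without Ly6D+ replicate 2, the array at 206, its log2 change was -0.84 and was called (adjusted p = 0.0361, limma). Plagl1 had a log2 change of -0.55 (adjusted p = 0.375, limma), which was -1.17 and called without Ly6D- replicate 2 (adjusted p = 0.00509, limma). The probe set shared by H19 and Mir675 read 47.1, 67.4 and 29.1 in young HSC and 10.5 to 21.6 in CLP. It was tested only in a fit over all probe sets, where its log2 change was -1.02 ± 0.33 (SE; adjusted p = 0.0384, limma), and it cannot be assigned to either gene. Markers of other cells moved with this comparison: the mean log2 level of megakaryocyte markers was 8.01 to 8.09 in young HSC and 5.26 to 5.68 in CLP, and that of mast cell markers 6.23 to 6.43 and 5.15 to 5.62. Among the mast cell markers, Gata2 had a mean of 1890 in young HSC, 82.7 in Ly6D- and 32.0 in Ly6D+ CLP. In the same order Cpa3 was 39.9, 37.9 and 24.3 and Mcpt8 23.8, 23.5 and 89.0. Fcer1a and Ms4a2 were dim in these groups, so the lower mean came mainly from Gata2. Other lists rose: the mean log2 level of mature B markers was 6.36 to 6.56 in young HSC and 7.03 to 7.34 in CLP. That of T and NK markers was 5.82 to 6.05 and 6.45 to 6.59. Cd79b had a mean of 85.6 in young HSC, 294 in Ly6D- and 954 in Ly6D+ CLP, and Nkg7 150, 801 and 831. The other mature B markers did not rise in both CLP groups. The part of these markers in the result was not tested.

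Between young and 32-week wild-type HSC, Meg3 and Ndn rose and Grb10 and Plagl1 fell, 4 of the 9 genes tested in the limma fit of the 12 HSC arrays. Over the 13482 genes tested, 6.42% were called higher and 17.7% lower, and groups did not overlap for 38.3%. The 3′ to 5′ ratios above moved with this comparison. So did the mean log2 level of HSC markers, 9.71 to 9.88 in young and 8.84 to 9.52 in 32-week wild-type HSC. That of macrophage markers was 5.80 to 6.51 and 5.29 to 5.56, and that of mature B markers 6.36 to 6.56 and 6.62 to 6.88. The HSC markers did not move together. Kit had a mean of 3193 in young HSC and 1024 at 32 weeks, and Tek 555 and 124. Slamf1, at 309 and 416, Procr, at 1478 and 1546, and Fgd5, at 555 and 717, were higher at 32 weeks. The other HSC markers were lower. Of the mature B markers, Ms4a1 was lower and the others higher. The part of these in the result was not tested.

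Grb10 was lower at 32 weeks and higher in old HSC than in young HSC. The 32-week wild-type arrays read 719, 1207 and 1005 and the old arrays 3053, 2964 and 2913, beside 2016, 2214 and 1980.2 in young HSC. None of these 3 groups overlapped another. The mean was 977 ± 245 (SD, n = 3) at 32 weeks, 2977 ± 70.6 in old and 2070.0 ± 126 in young HSC. The log2 change at 32 weeks was -1.10 ± 0.19 (SE; adjusted p = 0.00207, limma), and it was -0.90 to -1.27 when any 1 array was left out. As the mean of all 3 Grb10 probe sets, it was -0.24 and not called (adjusted p = 0.120, limma). The change in old HSC was 0.52 ± 0.19 and did not pass the test (adjusted p = 0.307, limma).

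Ndn read 2517, 1752 and 2064 in 32-week wild-type HSC and 2149, 1928 and 1996 in old HSC, all above the 1238 to 1596 of young HSC. The log2 change at 32 weeks was 0.59 ± 0.17 (SE; adjusted p = 0.0249, limma), and that in old HSC was 0.54 ± 0.17 (adjusted p = 0.207, limma). The call at 32 weeks was lost without young replicate 2 or 3 or wild-type replicate 1 or 3, and the log2 change ranged from 0.45 to 0.71 as each array was left out. Without wild-type replicate 3, whose Xist goes against its label, it was 0.60 (adjusted p = 0.0533, limma). The other 4 bright Ndn probe sets had log2 changes of -0.28 to 0.31 at 32 weeks, and none was called. Of these, 1455792_x_at rose by 0.31, with 2251 to 2701 at 32 weeks above 1791 to 2187 in young HSC. The change was 0.083 on 1435383_x_at, and on 1435382_at and 1415923_at it was -0.035 and -0.28. In old HSC all 5 pointed the same way, with log2 changes of 0.40 to 0.63, every old array above every young array, and none called.

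Cdkn1c read 426, 588 and 328 in old HSC and 205, 603 and 450.0 in 32-week wild-type HSC. Both groups overlapped the 297 to 335 of young HSC. The log2 change was 0.46 ± 0.32 (SE; adjusted p = 0.937, limma) in old HSC and 0.29 ± 0.32 (adjusted p = 0.564, limma) at 32 weeks. The value at 32 weeks rested on single arrays: it was 0.71 and called without wild-type replicate 1 (adjusted p = 0.0462, limma), and -0.030 without wild-type replicate 2 (adjusted p = 0.950, limma).

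**Figure D2:**
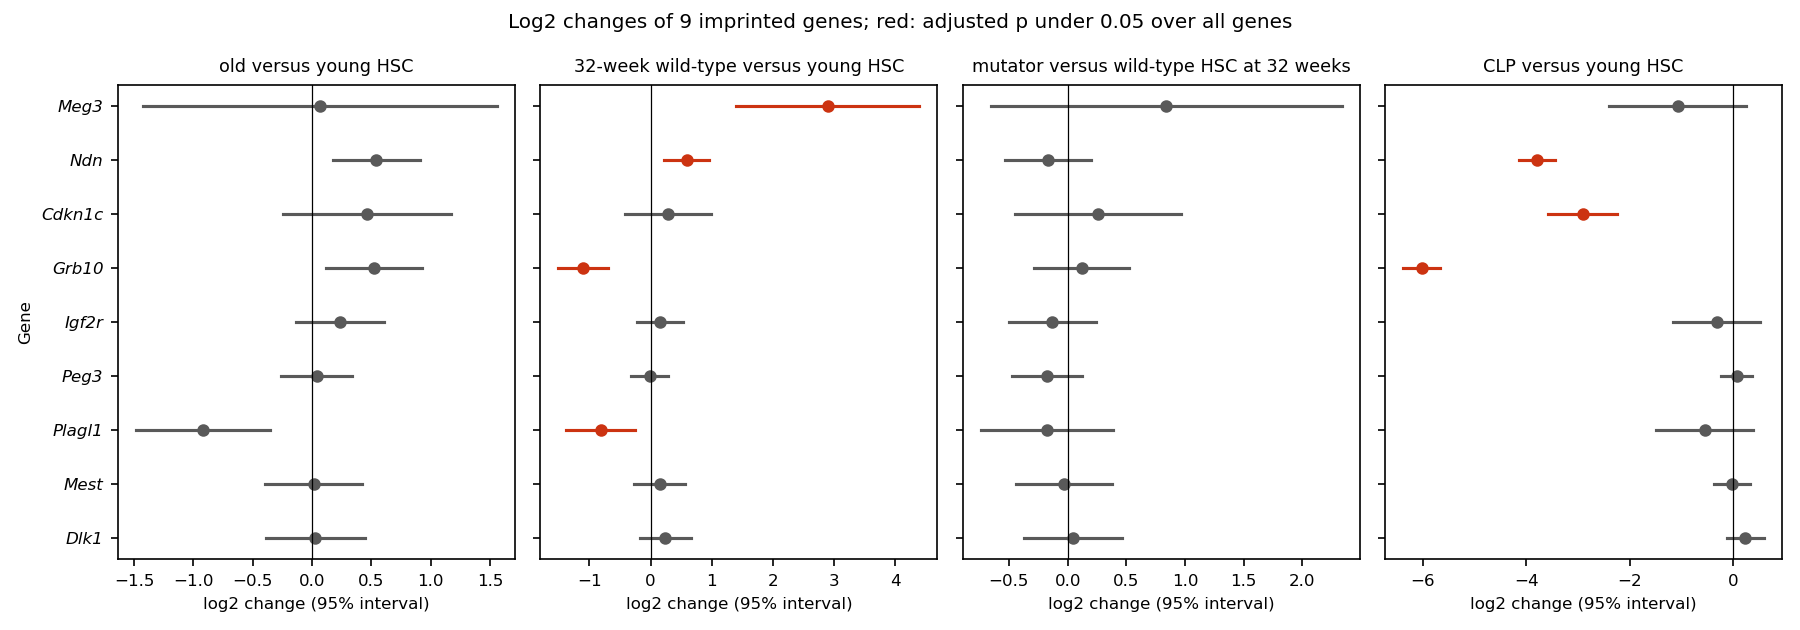
Log2 change of the 9 genes tested in 4 comparisons, with the 95% interval from limma and calls in red. The changes of Grb10, Ndn and Cdkn1c in CLP lie well below 0, and in 32-week HSC the interval of Meg3 lies above 0 and that of Grb10 below it.

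Meg3 is a maternally expressed long noncoding RNA of the Dlk1-Meg3 locus, whose other products include Rian and Mirg, hosts of small RNAs. Its brightest probe set read 64.1, 130.5 and 146 in young HSC and 132, 112 and 98.7 in old HSC. At 32 weeks it read 554, 433 and 3057 in wild-type HSC and 2796, 2339 and 666 in mutator HSC. All 6 arrays at 32 weeks were above all 6 young and old arrays, and 1 wild-type and 2 mutator arrays were far above the rest.

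The log2 change from young to 32-week wild-type HSC was 2.90 ± 0.68 (SE; 95% interval 1.40 to 4.39; adjusted p = 0.0105, limma). It stayed called when any 1 array was left out, with changes from 2.03 to 3.42. The value of 2.03 was the one without wild-type replicate 3 (adjusted p = 0.0233, limma). On this brightest probe set, old and young HSC differed by 0.07, with an interval of -1.43 to 1.56 that leaves room for a change of more than 2-fold either way. This interval uses the spread shared by all HSC groups. The SD of the log2 values was 0.55 in young and 0.19 in old HSC, and 1.51 in wild-type and 1.11 in mutator HSC at 32 weeks.

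The 11 Meg3 probe sets did not act alike. A second probe set, 1452905_at, read 249.5, 209 and 2367 in 32-week wild-type, 1184, 803 and 375 in mutator and 64.3, 111 and 131 in young HSC. In old HSC it read 138 to 153, above every young array, a log2 change of 0.48 that was not called (adjusted p = 0.9998, limma). Over the 8 Meg3 probe sets tested, the change in old HSC ran from -0.06 to 0.48. Another, 1452183_a_at, read 230.1, 157 and 1265 in wild-type, 933, 537 and 275 in mutator and 61.4, 77.0 and 78.4 in young HSC. Both were highest on the same 3 arrays as the brightest one.

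In the fit over all 29333 probe sets, the log2 change at 32 weeks was 2.90 for the brightest, 2.11 for 1452183_a_at (adjusted p = 0.0366, limma), 2.19 for 1452905_at (adjusted p = 0.0588, limma) and 0.90 for 1426758_s_at (adjusted p = 0.204, limma). Of the 8 Meg3 probe sets bright enough to test, 2 were called. The other 4 tested had changes of -0.10 to 0.44, and the last 3 were too dim to test.

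**Figure D3:**
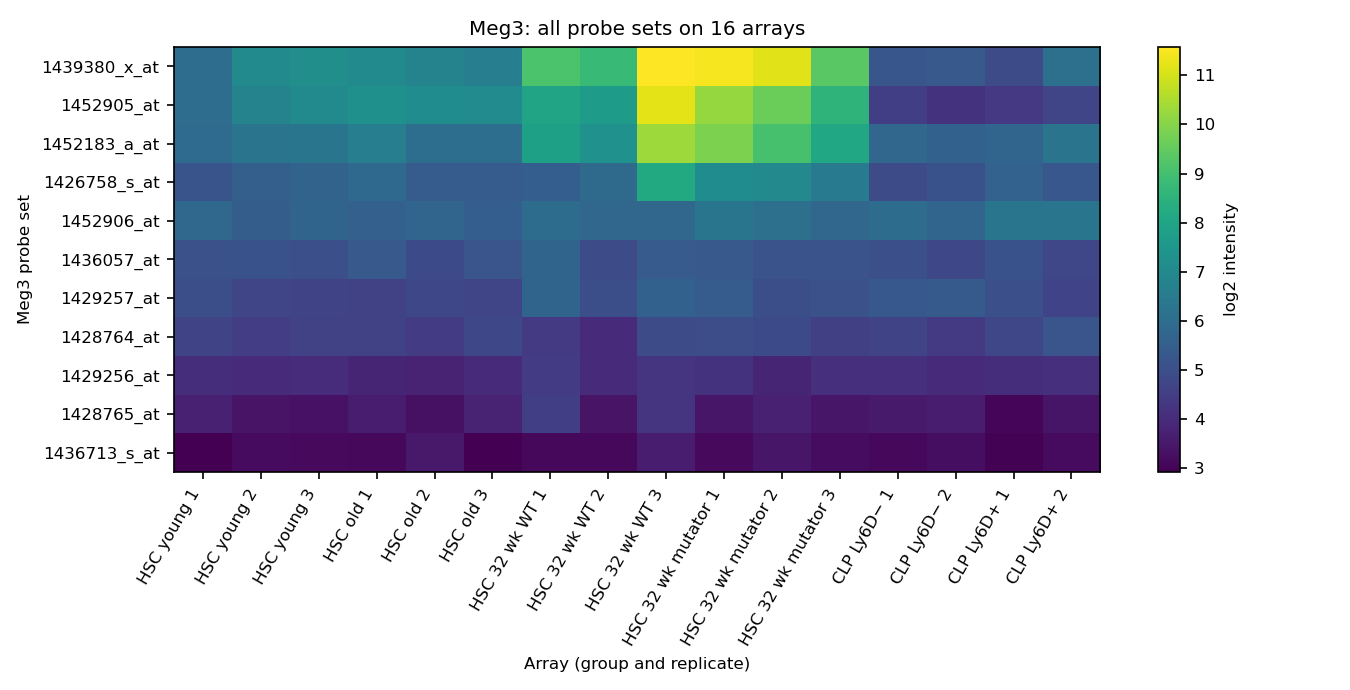
Log2 intensity of all 11 Meg3 probe sets (rows) on the 16 arrays (columns), as colour. The 4 upper probe sets brighten on wild-type replicate 3 and on the mutator arrays at 32 weeks, while the lower ones stay near 1 level on all arrays.

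The 3 arrays with the highest Meg3 also had the highest 3′ to 5′ ratios of actin. These log2 ratios were 5.26 in wild-type replicate 3 and 5.14 and 5.25 in mutator replicates 1 and 2, against 4.90 and 4.24 in wild-type replicates 1 and 2 and 4.74 in mutator replicate 3. The ratio of Gapdh did not give the same order: it was 4.82, 4.77 and 4.24 on the 3 arrays with the highest Meg3, and 4.37, 3.64 and 4.42 on the others in the order above. The part of these ratios in the Meg3 values was not tested.

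Meg3 is also expressed in stroma. The mean log2 level of 14 stroma and endothelium markers was 5.55 to 5.75 in 32-week wild-type, 5.47 to 5.63 in mutator and 5.57 to 5.82 in young HSC. Of these 14 markers, Lum and Pdgfra were above the 40th percentile on 0 of 16 arrays, Cdh5 and Col3a1 on 1, Col1a1 on 3 and Lepr on 4. The other 8 were above it on 13 to 16 arrays, among them Col1a2, with a mean of 352 in 32-week wild-type, 114 in mutator and 228 in young HSC. The part of stromal RNA in the Meg3 values was not tested.

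**Figure D4:**
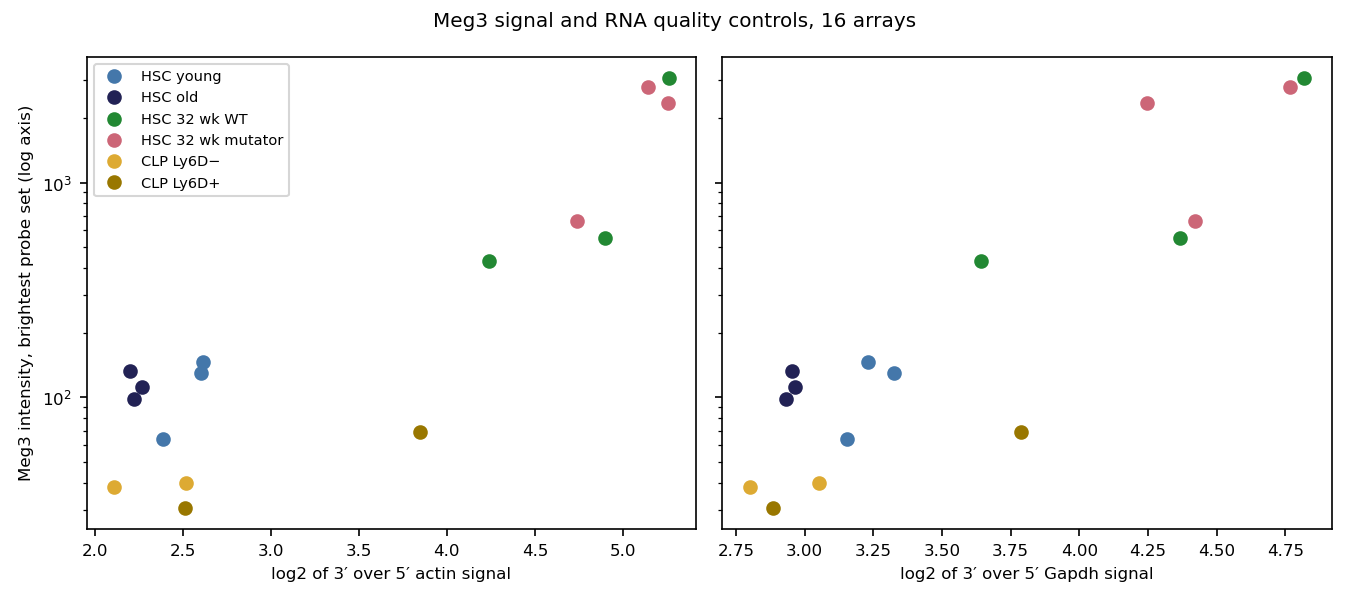
Meg3 intensity (log axis) against the log2 ratio of 3′ to 5′ signal of beta-actin (left) and Gapdh (right) on each of the 16 arrays, coloured by group. On the left the arrays at 32 weeks stand to the right of the others, and the 3 highest Meg3 values lie at actin ratios of 5.14 to 5.26 but at Gapdh ratios of 4.24 to 4.82.

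Other transcripts of the locus did not pass the test at 32 weeks. Rian had a mean of 30.9 against 22.8 in young HSC (log2 change 0.26, adjusted p = 0.360, limma) and Mirg 32.1 against 21.7 (0.34, adjusted p = 0.163, limma). Dlk1, the paternally expressed ligand-like protein of the locus, was dim to low on all arrays, at 12.4 to 27.2, with a log2 change of 0.24 (adjusted p = 0.397, limma).

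Igf2r, the receptor that clears the growth factor IGF2 from the cell surface, differed little among HSC groups on its brightest probe set. It read 101, 125 and 96.8 in young, 109, 159.8 and 121 in old, 127, 122 and 114 in 32-week wild-type and 123, 90.4 and 116 in mutator HSC. These groups overlapped, and the log2 change was 0.23 ± 0.17 in old (adjusted p = 0.959, limma) and 0.15 ± 0.17 at 32 weeks (adjusted p = 0.548, limma). On its second probe set, old HSC read 125 to 158, above the 60.5 to 120 of young HSC. That change was 0.56 and was not called (adjusted p = 0.608, limma), and the change at 32 weeks was -0.04. The H19-Mir675 probe set had log2 changes of -0.11 in old and -0.43 at 32 weeks (adjusted p = 0.438, limma), and Igf2 a change of 0.16 at 32 weeks (adjusted p = 0.567, limma).

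Plagl1, a zinc-finger transcription factor, was low. It read 37.9, 52.0 and 51.9 in young HSC and fell to 9.68, 37.5 and 17.2 at 32 weeks, a log2 change of -0.82 ± 0.26 (SE; adjusted p = 0.0392, limma). The groups were separated by 37.5 against 37.9 at their edges. The call was lost without any of the 3 young arrays and without wild-type replicate 1 or 3, and the change ranged from -1.11 to -0.58 as each array was left out. Old HSC, at 16.5, 22.0 and 13.9, had a change of -0.92 ± 0.26 that did not pass the test (adjusted p = 0.155, limma). A second probe set changed by 0.11 at 32 weeks and 0.02 in old HSC.

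Peg3, a zinc-finger protein, and Mest, a hydrolase-like protein, stayed near the dim level. Peg3 was 19.7 to 38.1 and Mest 19.2 to 41.4 on the 16 arrays. Neither passed the test in any comparison, and their group means spanned 0.32 and 0.23 log2 units over the 6 groups.

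In old against young HSC, none of the 9 genes was called, where 1.31% of all 13482 genes were. Groups of arrays did not overlap for 3 of the 9, Grb10, Ndn and Plagl1, and for 27.2% of all genes. These 3 were called when only the 6 young and old arrays were fitted, with the same log2 changes and adjusted p of 0.0157, 0.0341 and 0.00783 in limma. They were also called with array weights, which count less the arrays that scatter more. Over all genes, 7.37% were called in the fit of the 6 arrays and 13.9% with array weights. The mean log2 level of HSC markers was 9.71 to 9.88 in young and 10.2 to 10.4 in old HSC. That of macrophage markers was 5.80 to 6.51 in young and 5.29 to 5.48 in old HSC, that of megakaryocyte markers 8.01 to 8.09 and 8.52 to 9.00, and that of erythroid markers 5.84 to 6.01 and 5.35 to 5.58. Their part in these values was not tested.

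Mutator and wild-type HSC at 32 weeks did not differ in any of the 9 genes by the test, with adjusted p from 0.849 to 0.994 in limma. Of all 13482 genes, 0% were called by limma and 984 had an unadjusted p under 0.05. The Polg transcript itself, which carries the altered sequence and so does not check the genotype, was 113 to 163 in wild type and 65.9 to 125 in mutator. Grb10 read 899, 1196 and 1045 in mutator against 719, 1207 and 1005, a log2 difference of 0.12 with an interval of -0.29 to 0.53. Ndn read 2091, 1693 and 1800.1 in mutator against 2517, 1752 and 2064, a difference of -0.17 (-0.53 to 0.20). The Cdkn1c arrays were 448, 527 and 416 in mutator, a difference of 0.26 (-0.45 to 0.96). For Meg3 the difference was 0.84 (-0.65 to 2.33), and it ranged from 0.32 to 1.71 as each array was left out. The value of 1.71 was the one without wild-type replicate 3 (adjusted p = 0.669, limma). Without wild-type replicate 1 or 2 it was 0.49 or 0.32, and without mutator replicate 1, 2 or 3 it was 0.46, 0.59 or 1.48. The H19-Mir675 probe set differed by -0.05 ± 0.37 (SE; adjusted p = 0.997, limma), and groups overlapped in all 9 genes, where 6.07% of all genes had groups that did not.

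The mutator effect minus the ageing effect passed the test for none of the 9 genes (adjusted p from 0.374 to 0.998, limma), where 0.512% of all genes passed. It was 0.78 ± 0.96 (SE) for Meg3, 0.74 ± 0.36 for Plagl1 and 0.06 ± 0.52 for the H19-Mir675 probe set. Ndn had -0.71 ± 0.24, as it was 0.54 higher in old than in young and 0.17 lower in mutator than in wild type. The 5 bright Ndn probe sets gave -0.77 to -0.35 and none was called.

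Within CLP, Ly6D+ and Ly6D- cells differed in none of the 9 genes (adjusted p from 0.359 to 0.9995, limma), where 2.68% of all 14344 genes were called. Plagl1 had the largest difference, -1.27, from 12.4 and 140.4 in Ly6D- to 10.1 and 13.4 in Ly6D+. It rested on Ly6D- replicate 2, the array at 140.4: the difference was -0.04 without that array and -2.50 without Ly6D- replicate 1. The array at 140.4 also had the highest mean log2 level of neutrophil markers of all 16 arrays. That level was 9.20, beside 6.16 in Ly6D- replicate 1 and 5.95 to 6.16 in Ly6D+ CLP, and its part in the Plagl1 value was not tested. Igf2r read 123 and 41.6 in Ly6D- and 37.0 and 206 in Ly6D+, and the arrays of 1 group differed more than the groups. The H19-Mir675 probe set differed by 0.23 ± 0.43 (SE; adjusted p = 0.932, limma).

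The order of the groups showed where neighbours separated. Grb10 ran from old through young, mutator and wild type at 32 weeks to CLP, and only mutator with wild type and the CLP groups with each other overlapped. On the Ndn probe set that stands for the gene, the 32-week groups and old HSC were highest, where neighbours overlapped, then young HSC and CLP, each without overlap. On 3 of the other 4 bright Ndn probe sets, old HSC had the highest mean and 32-week wild-type HSC overlapped young HSC. In Cdkn1c the 4 HSC groups overlapped and were separated from CLP. In Meg3 the 32-week groups overlapped each other and stood above the rest without overlap.

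Genes with the most similar group means were found by the root mean square difference over the 6 centred group means, among 13363 genes. For Grb10 these were Slc18a2 (0.31), Myct1 (0.41) and Procr (0.47), for Ndn they were Gng11 (0.14), Fgd5 (0.22) and Cryz (0.23), and for Cdkn1c they were Mfhas1 (0.17), Cyp7b1 (0.18) and Arrdc4 (0.19). For Meg3 the nearest were Ankrd33b (0.62), Nsmf (0.71) and Flywch2 (0.78). For Plagl1 they were Mei4 (0.17), Arhgap19 (0.18) and Il21r (0.20).

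Of 64 other imprinted genes, 56 were on the array. At 32 weeks 2 of the 42 tested rose and 5 fell against young HSC, with a median log2 change of -0.05 beside -0.04 over all genes. Atp10a, a lipid flippase, rose by 1.13 and Ppp1r9a by 1.41, and Copg2, a subunit of vesicle coats, fell by 2.0, Nap1l4, a histone chaperone, by 1.38, Inpp5f by 0.74, and Peg12 by 0.62 (adjusted p 0.00282 to 0.0276, limma). In CLP against young HSC, 1 of 45 rose and 13 fell, with a median of -0.09 beside 0.01 over all genes. These are 16.7% of the list at 32 weeks and 31.1% in CLP, beside 24.2% and 30.7% of all genes. Sgce, a sarcoglycan, fell by 3.55, Phlda2 by 2.12, Gatm by 2.07, Pon2 by 1.39 and Peg12 by 0.92, while Osbpl5 rose by 2.22 (adjusted p 5.16e-07 to 0.000652, limma). In the other 4 comparisons 0 were called by limma.

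**Figure D5:**
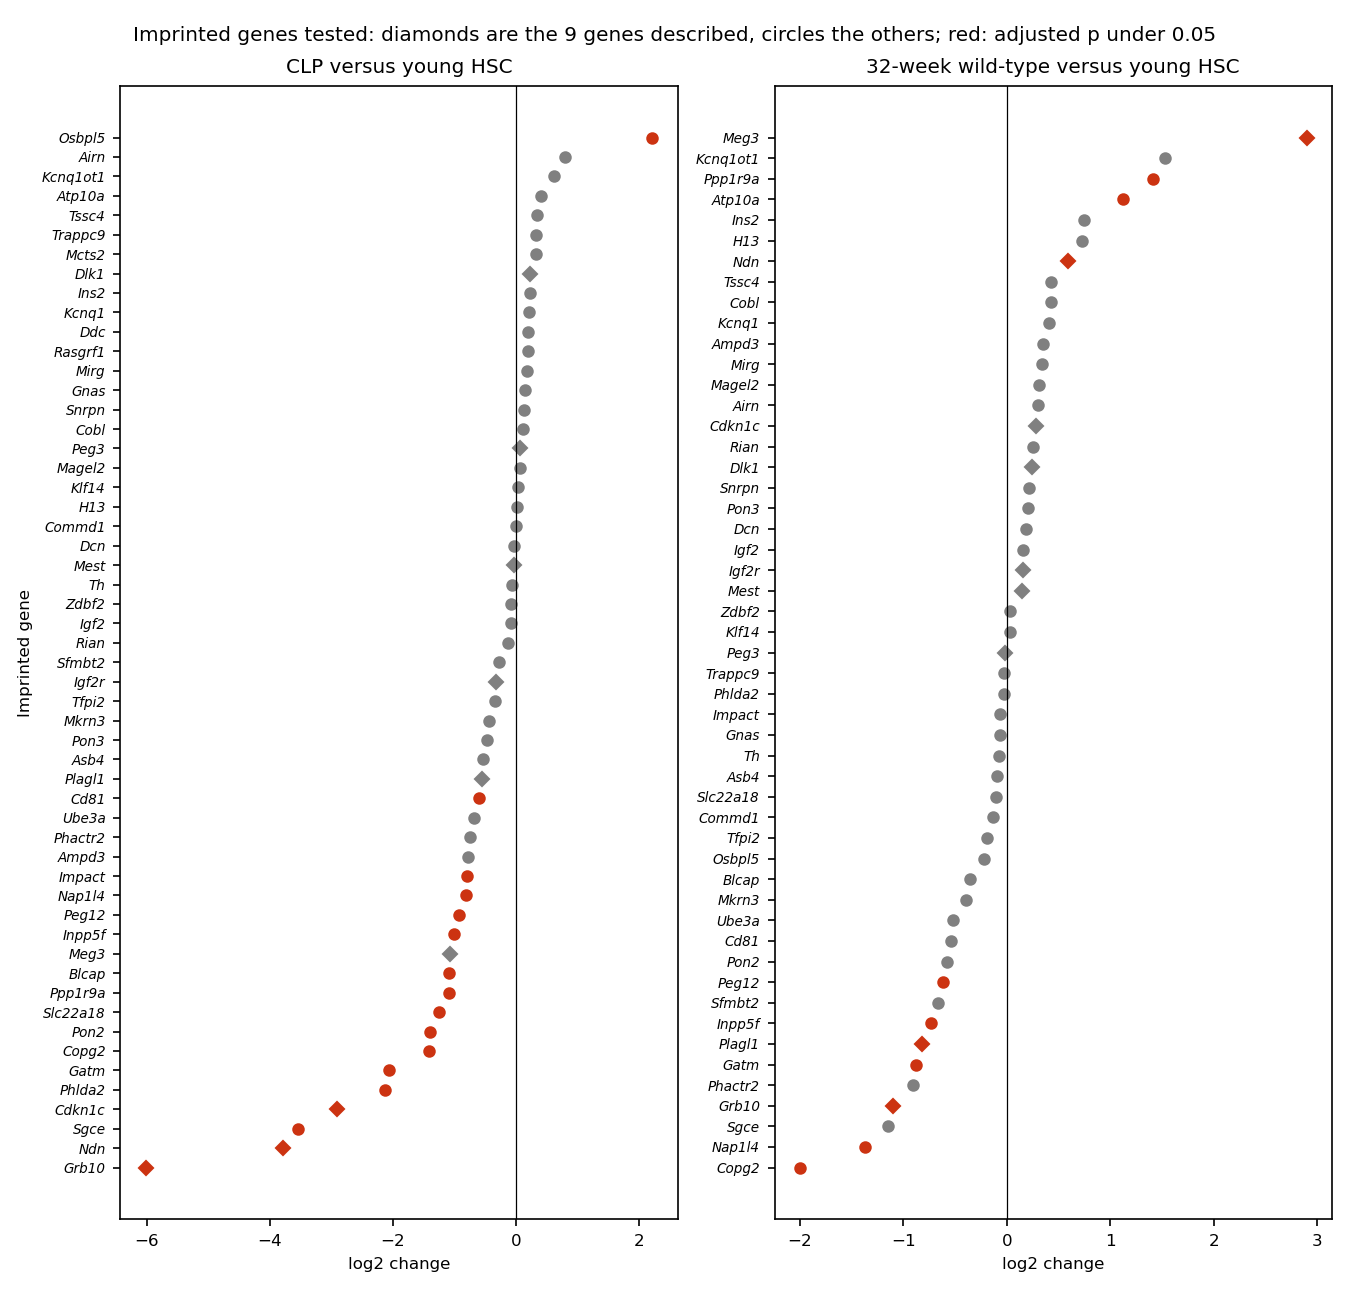
Log2 change of all imprinted genes tested, in CLP against young HSC (left) and 32-week wild-type against young HSC (right), with the 9 genes described as diamonds, the others as circles and calls in red. Grb10 and Ndn lie lowest on the left, and Meg3 lies highest on the right.

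Among 15 tested regulators of imprints, 2 fell in old HSC: Dnmt3b, which lays down DNA methylation, by 0.95 and Tet1, which oxidises methylcytosine, fell by 1.04 (adjusted p = 0.0457 and 0.0476, limma). At 32 weeks 4 of the 15 fell and 1 rose. Among them Eed, a subunit of the Polycomb complex that methylates histone H3, fell by 1.71 and Dnmt3a, another DNA methyltransferase, fell by 1.29 (adjusted p = 0.00249 and 0.00331, limma). In CLP 3 of 16 rose and 1 fell, and Dnmt1, which copies methylation at replication, rose by 1.28 (adjusted p = 0.000105, limma). The shares called were 13.3% in old HSC, 33.3% at 32 weeks and 25% in CLP, beside 1.31%, 24.2% and 30.7% of all genes. The 13.3% stands for 2 genes close to the threshold. The list was chosen with earlier results of these data known, so these shares are not a test of it. The median log2 change of the tested regulators was -0.15 in old HSC, -0.32 at 32 weeks and 0.15 in CLP, beside -0.0091, -0.04 and 0.01 over all genes.

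The list of insulin-IGF and G1 genes holds the receptors, kinases and cyclins on which Grb10 and Cdkn1c act. At 32 weeks 1 of 22 rose and 5 fell, in CLP 4 rose and 6 fell, and between the CLP groups 4 were higher and 1 lower in Ly6D+ cells. These are 27.3%, 45.5% and 22.7% of the list, beside 24.2%, 30.7% and 2.68% of all genes, and the median log2 changes were -0.33, -0.09 and -0.04, beside -0.04, 0.01 and 0.01. Cdk2, a kinase of the step into S phase, fell by 2.19 at 32 weeks, and Ccnd2, a D-type cyclin, rose by 1.41. In CLP, Cdk6, a partner of D-type cyclins, rose by 2.14, Rptor, of the mTOR complex, rose by 1.42 and Igf1r, the IGF1 receptor, fell by 2.05 (adjusted p = 4.98e-05, limma). In Ly6D+ against Ly6D- CLP, Foxo1, a transcription factor restrained by insulin signals, was higher by 2.55, Rptor by 1.36, Ccnd3 by 2.11 and Cdkn1a, which encodes p21, by 2.42 (adjusted p 0.00116 to 0.0333, limma). When only the CLP arrays were fitted, 0% of all genes were called between these groups, so none of these calls held. With array weights 0.732% of all genes were called, beside the 2.68% of the main fit. In the other 3 comparisons 0 of these 22 genes were called by limma.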

How the data were processed

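Per the labels, total RNA was extracted with a QIAGEN microRNeasy kit and labelled by the standard Affymetrix procedure. The deposited values were probe set intensities on a linear scale, and no source used here gives the authors' background correction or normalization. No value column was left out.

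Intensities were transformed to log2(intensity + 16). The probe set of highest mean log2 value stands for a gene (34958 probe sets carried 1 symbol). Genes above the 40th percentile of their array on at least 3 of 12 HSC arrays, or 2 of 16, entered lmFit and eBayes of limma 3.58.1 (R 4.3.3). Adjusted p-values are Benjamini-Hochberg over all genes, called under 0.05, and the HSC comparisons share 1 estimate of the spread. Arrays and not cells limit the precision. The p-values set a difference of group means against the spread of arrays within the groups of the fit. Nothing says that the biological replicates came from separate mice, so that spread is one between these samples and may not be one between mice. The fit was tested on simulated data.

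All 10 members were taken in every comparison, H19 through the probe set it shares, with up to 6 other imprinted genes and 4 genes of the other 2 lists by smallest adjusted p. Rian, Mirg and Igf2 were named outside this rule as neighbours of members. Members and lists were chosen with earlier results of these data known, so the share of a list that was called is not a test of that list. H19 alone was not analysed here. The main fits left the samples unpaired. Correlations of same-numbered HSC arrays ran from -0.184 to 0.507, and were 0.507, 0.421 and -0.013 for young with old HSC. Arrays of different numbers were not compared, so these values do not settle whether replicate numbers pair the samples. Alternatives covered normalization, filters, pseudocounts of 1 and 64, probe sets, spread estimates, array weights, the replicate block and leaving out arrays. Leaving out wild-type replicate 3 from other comparisons and averaging the close pair of young replicates 2 and 3 were added after seeing the data.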

Additional observations from a re-analysis of the deposited data

How the results depend on the processing

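The replicate number as a block left the members called at 0, 0, 4, 0, 3 and 0 in the 6 comparisons, as in the fits without it, and changed no call count. In old against young HSC 3 of the 9 genes were called with array weights and 3 when only the groups compared were fitted, against 0, where 13.9% and 7.37% of all genes were called, against 1.31%. In 32-week wild-type against young HSC the 4 calls became 1 with the mean of all probe sets, 2 with only the groups compared and 2 with young replicates 2 and 3 averaged (20.1%, 16.2% and 15.1% of all genes, against 24.2%), and 2 to 4 when an array was left out. Ndn and Plagl1 were the calls lost with only the groups compared and with young replicates averaged, and Grb10, Ndn and Plagl1 with the mean of probe sets. Meg3 was called lower in CLP when only the groups compared were fitted (-1.07, adjusted p = 0.0467, limma). The mutator effect minus the ageing effect gave 1 call with array weights, where 3.58% of all genes were called. Between the CLP groups 0 to 1 were called when an array was left out. The cause of these shifts was not tested. Quantile normalization, median centring and both pseudocounts kept every count of members called within 1.5 times.

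Some log2 changes turned sign, none of them called under that alternative. With array weights Meg3 in old HSC was -0.17, Peg3 at 32 weeks 0.12, Dlk1 in mutator -0.15 and its mutator effect minus ageing effect -0.28. With the mean of probe sets Igf2r was -0.26 and Dlk1 -0.066 between CLP groups, and Peg3 0.079 at 32 weeks and -0.0069 in CLP. With young replicates averaged Peg3 was -0.0037 and Dlk1 -0.027 in old HSC, and with a pseudocount of 1 Dlk1 was -0.0001 between CLP groups. On other probe sets the 32-week change was -0.10 for Meg3, -0.035 and -0.28 for Ndn, 0.24 for Grb10 and 0.11 for Plagl1, and the CLP change of Grb10 was 0.064.

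Leaving out arrays turned the sign of 24 results. The ranges at 32 weeks were -0.030 to 0.71 for Cdkn1c and -0.086 to 0.069 for Peg3. In old HSC they were -0.25 to 0.26 for Meg3, -0.051 to 0.14 for Dlk1, -0.032 to 0.038 for Mest and -0.021 to 0.12 for Peg3. In mutator HSC they were -0.17 to 0.57 for Cdkn1c, -0.15 to 0.15 for Dlk1, -0.082 to 0.29 for Grb10, -0.26 to 0.095 for Mest and -0.41 to 0.11 for Plagl1. For the difference of effects they were -0.63 to 0.11 for Cdkn1c, -0.18 to 0.12 for Dlk1 and -0.27 to 0.082 for Mest. In CLP against young HSC they were -0.84 to 0.20 for Igf2r, -0.036 to 0.18 for Peg3 and -1.17 to 0.065 for Plagl1. Between CLP groups they were -0.0081 to 0.69 for Cdkn1c, -0.092 to 0.095 for Dlk1, -0.0061 to 0.28 for Grb10, -0.75 to 1.31 for Igf2r, -0.24 to 0.62 for Meg3, -0.15 to 0.24 for Ndn and -0.32 to 0.11 for Peg3. Without 32-week wild-type replicate 2, 209 genes were called higher and 13 lower in mutator HSC, none of them a member. With 2 or 3 arrays a group and several members near background, small changes of Peg3, Mest and Dlk1 were not detectable.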
